A study of Homo sapiens with 2 samples.

Results

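The zinc finger (ZNF) genes of human chromosome 19 were examined for NUDT21 CUT&Tag peaks at their promoters and at their 3′ ends. Members were all protein-coding genes of GENCODE release 44 on chromosome 19 whose symbol was ZNF followed by a number and, in some, a letter. There were 246 of them among 1476 protein-coding genes of the chromosome and 20033 on all main chromosomes. The rule used no measured value, although it was set with earlier results of these data known. J.gamma1, an established T-ALL (T-cell acute leukemia) line derived from Jurkat, had been profiled in 2 biological replicates with the same NUDT21 antibody, and the labels give no treatment or genetic change. CUT&Tag tethers a transposase, by way of the antibody, to wherever the antigen sits on DNA, and the released fragments are sequenced. Because the replicates made up a single group with no knockdown or control antibody sample among them, no condition could be tested, and all comparisons below are descriptions. J.gamma1 is 1 cell line, so the spread between replicates holds no variation between patients.

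Most ZNF genes of chromosome 19 encode proteins with a KRAB domain near the start and a long row of C2H2 zinc fingers behind it. The fingers read DNA, often in transposable elements, and the KRAB domain recruits the corepressor TRIM28, which brings the histone methyltransferase SETDB1 and HP1 proteins and so silences the bound region. The genes arose by repeated tandem duplication, stand in clusters, and are known to carry H3K9me3, a mark of silent chromatin, over the exon that encodes the fingers. NUDT21 is the small subunit of cleavage factor Im, which binds UGUA in nascent RNA and influences which polyadenylation site is used, so both ends of a gene were of interest.

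The members shared the zinc finger pattern but varied in the number of copies. The pattern, with spacings taken from C2H2 fingers, matched the translated canonical coding sequence of every member at least 1 time and at most 36 times, with a median of 12 fingers. Of all fingers found, 98.7% lay in the last exon. The last exon had a median length of 3376 bp, against 733 bp for the other 1230 genes of the chromosome. A KRAB A box pattern matched in 204 members. Promoter GC content, measured within 500 bp either side of the canonical start, had a median of 58.4% in members and 62% in the other genes.

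Promoter sequences of 6 members are given first, because these members mark both extremes of the results. ZNF446, ZNF628 and ZNF333 had the strongest promoter peaks by the rank of their fold in both replicates, while ZNF667, ZNF606 and ZNF470 had none and yet had the highest promoter GC content of all members without a peak. The fold is the deposited enrichment at the summit of a peak over its local background. From it and the deposited p-value, fragments piled up at each summit and the local background under them, here the control level, were solved. In replicate 1 the fragments and the control level are on different scales, as described with the processing. The sequences are the 250 bases before the RefSeq start on GRCh38.p14, at chr19:58476102-58476351 (plus strand), chr19:55476367-55476616 (plus strand), chr19:14689798-14690047 (plus strand), chr19:56477346-56477595 (minus strand), chr19:58002821-58003070 (minus strand) and chr19:56567218-56567467 (plus strand), each 5′ to 3′ in the sense of its gene. Capitals mark matches, on either strand, to TGTA, the ETS word CCGGAAG, the cyclic AMP response word TGACGTCA, the NRF1 word CGCATGCG, the YY1 word AAGATGG and the gapped word TACANNTCCCA, of which the last was chosen after these sequences had been seen and contains TGTA on its opposite strand.
ZNF446: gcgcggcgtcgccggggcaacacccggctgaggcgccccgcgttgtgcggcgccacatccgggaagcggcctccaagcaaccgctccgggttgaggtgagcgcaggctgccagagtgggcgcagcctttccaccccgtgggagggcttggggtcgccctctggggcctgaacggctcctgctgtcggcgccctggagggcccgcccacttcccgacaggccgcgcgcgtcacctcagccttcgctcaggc
ZNF628: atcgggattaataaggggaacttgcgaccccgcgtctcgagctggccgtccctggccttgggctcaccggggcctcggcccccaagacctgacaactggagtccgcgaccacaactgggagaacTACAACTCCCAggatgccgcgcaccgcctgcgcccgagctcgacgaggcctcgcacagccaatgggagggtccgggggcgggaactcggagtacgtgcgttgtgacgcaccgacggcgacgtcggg
ZNF333: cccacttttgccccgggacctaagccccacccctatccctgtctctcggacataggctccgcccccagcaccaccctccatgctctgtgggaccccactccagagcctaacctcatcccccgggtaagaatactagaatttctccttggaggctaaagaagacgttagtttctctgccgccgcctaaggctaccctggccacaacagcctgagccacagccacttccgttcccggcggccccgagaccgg
ZNF667: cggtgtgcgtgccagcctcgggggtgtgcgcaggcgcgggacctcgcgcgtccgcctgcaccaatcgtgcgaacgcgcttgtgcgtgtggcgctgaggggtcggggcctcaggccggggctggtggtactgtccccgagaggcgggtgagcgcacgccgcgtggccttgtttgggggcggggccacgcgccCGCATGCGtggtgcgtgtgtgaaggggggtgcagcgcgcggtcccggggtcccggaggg
ZNF606: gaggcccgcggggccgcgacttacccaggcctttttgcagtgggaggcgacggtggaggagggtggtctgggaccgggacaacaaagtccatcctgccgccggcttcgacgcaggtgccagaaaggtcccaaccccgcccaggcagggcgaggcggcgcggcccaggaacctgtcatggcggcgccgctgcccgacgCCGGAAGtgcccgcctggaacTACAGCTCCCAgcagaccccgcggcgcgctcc
ZNF470: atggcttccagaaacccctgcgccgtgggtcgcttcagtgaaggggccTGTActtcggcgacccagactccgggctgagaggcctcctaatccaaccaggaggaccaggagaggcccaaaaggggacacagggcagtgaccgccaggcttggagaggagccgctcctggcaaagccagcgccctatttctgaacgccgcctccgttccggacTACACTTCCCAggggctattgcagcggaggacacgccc

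The 3 promoters with strong peaks had a GC content of 74.4%, 67.6% and 61.6% over these 250 bases, in the order printed. The 3 promoters without a peak had 75.6%, 72.0% and 64.0%. CpG counts were 29, 29 and 12 in the first set and 35, 27 and 15 in the other. The base composition of both sets overlapped, but the second set had been chosen for its high GC content. Over all members, the median promoter GC content was 60.1% with peaks in both replicates and 54.6% with none. A RefSeq entry was found for 216 of the 246 members. CCGGAAG stood in 31.0% of these 216 promoters, in 12.5% of the promoters of other chromosome 19 genes and in 8.52% of all promoters in the table. Among members it stood in 28.1% of promoters with a peak in both replicates and in 37.5% of those with none. TGTA, the DNA form of the word that NUDT21 binds in RNA, stood in 57.4% of member promoters, in 40.9% of those of other chromosome 19 genes and in 53.9% of all promoters. Among members it stood in 62.2% of promoters with a peak in both replicates and in 51.8% of those with none. TGTA was counted on either strand in bases before the start, so these are counts in DNA, not in transcripts from that start. The part of base composition in them was not tested. TGACGTCA, CGCATGCG and AAGATGG stood in 3.24%, 2.78% and 5.09% of member promoters, in 3.05%, 3.79% and 3.89% of those of other chromosome 19 genes and in 1.65%, 1.73% and 3.70% of all promoters.

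A promoter peak was a peak with an edge no more than 3000 bp from a transcript start of the gene. A gene counted for both replicates if each list held such a peak, and these peaks need not overlap. Replicate 1 had such a peak at 171 of the 246 members, or 69.5% (95% Wilson interval 63.5 to 74.9). In replicate 2 there were 147, or 59.8% (53.5 to 65.7), so that the mean was 64.6% ± 6.90 (SD, n = 2). The background over all protein-coding genes was 69.8% in replicate 1 and 57.9% in replicate 2, close to the members. Peaks in both replicates were found at 145 members, or 58.9% (52.7 to 64.9), against a background of 57.0%. As a class, the members therefore did not stand apart from the genome. Their own chromosome did differ from both. Of the other 1230 protein-coding genes on chromosome 19, 91.4% had a promoter peak in replicate 1, 86.7% in replicate 2 and 86.3% in both (84.3 to 88.1). Members minus these genes gave -21.9 percentage points in replicate 1 and -27.0 in replicate 2, a gap larger than the spread between replicates. With only the 10000 strongest peaks of each list, the member share was 30.5% and the difference -31.5 points.

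Other zinc finger genes had shares near those of all protein-coding genes, which were 69.8% and 57.9%, and 57.0% in both replicates. ZNF genes of other chromosomes were not set against the other genes of their own chromosomes. The 262 ZNF genes on other chromosomes had promoter peaks in 70.6% and 58.8% of cases, and 56.5% had them in both (50.4 to 62.4). The 21 chromosome 19 genes with other zinc finger names, such as ZFP and ZSCAN genes, had peaks in both replicates in 57.1% of cases (36.5 to 75.5).

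Where the replicates disagreed, the peak was mostly in replicate 1. Peaks in that replicate only were found at 26 members, and in replicate 2 only at ZNF486 and ZNF225. No promoter peak was found at 73 members, or 29.7%, while 8.21% of the other chromosome 19 genes had none. Replicate 1 was the larger list, with 9006 peaks on chromosome 19 against 7737. The 26 members seen in replicate 1 alone had a median fold of 3.70 and a median of 21 fragments at the summit. For the 145 members seen in both, the replicate 1 medians were 6.47 and 50 fragments.

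**Figure D1:**
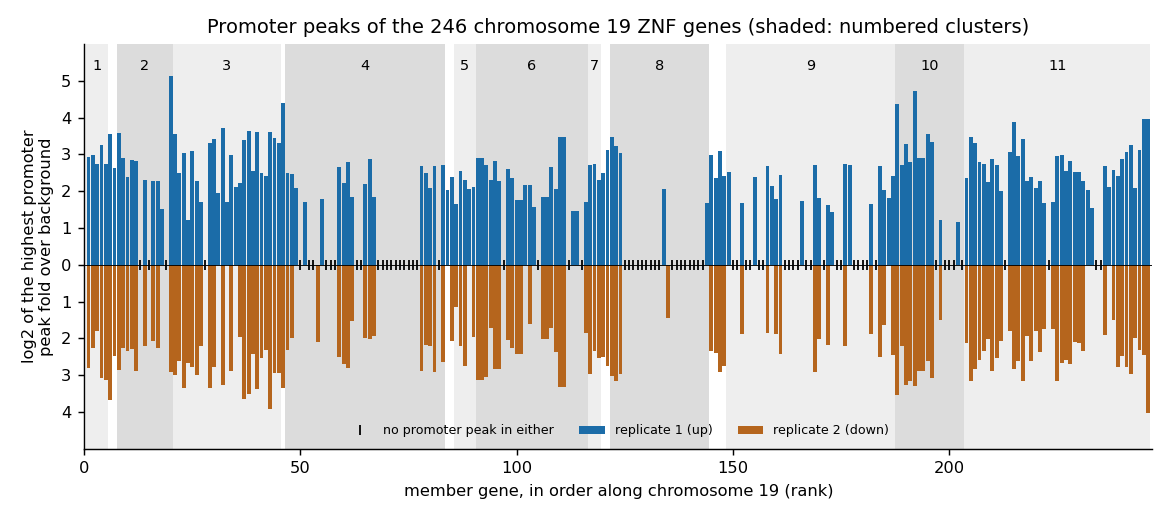
Highest promoter peak of each member in order along chromosome 19, as the log2 of the fold over background, with replicate 1 drawn upward, replicate 2 downward and black ticks for the 73 members with no promoter peak in either replicate. Long rows of ticks stand in clusters 4, 8 and 9, and cluster 8 is nearly empty after its first 3 members.

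The share of genes with a promoter peak rose with GC content in both sets, but members lay below the other genes in most classes. Between 50 and 55% GC, 18 of 50 members and 81 of 124 other genes had a peak in both replicates. Between 55 and 60% the shares were 60.2% of 83 members (49.5 to 70.1) and 91.5% of 270 other genes (87.5 to 94.3). Between 60 and 65% they were 75.8% of 62 members (63.8 to 84.8) and 93.1% of 335 (89.9 to 95.4). At 65% or more, 84.4% of 32 members (68.2 to 93.1) and 96.4% of 421 other genes (94.2 to 97.8) had peaks. These intervals did not overlap, but they reflect counting error alone and treat related genes as independent. Between 45 and 50% there were only 16 members and 41 other genes, and the intervals of 18.8% (6.59 to 43.0) and 29.3% (17.6 to 44.5) overlapped widely.

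Other genes were then weighted to the GC content of the members in bins of 5 percentage points. Weighted this way, 88.8% and 82.6% of them had a promoter peak in the 2 replicates, against 69.5% and 59.8% of members. The difference was -21.1 percentage points ± 2.52 (SD, n = 2), compared with -24.4 ± 3.62 without weighting. Most of the gap therefore remained at like GC content. The ratio of observed to expected CpG gave a wider gap. Members had a median ratio of 0.711 and other genes 0.654, and other genes weighted to the members by this ratio had peaks in 96.1% and 93.0% of cases.

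**Figure D2:**
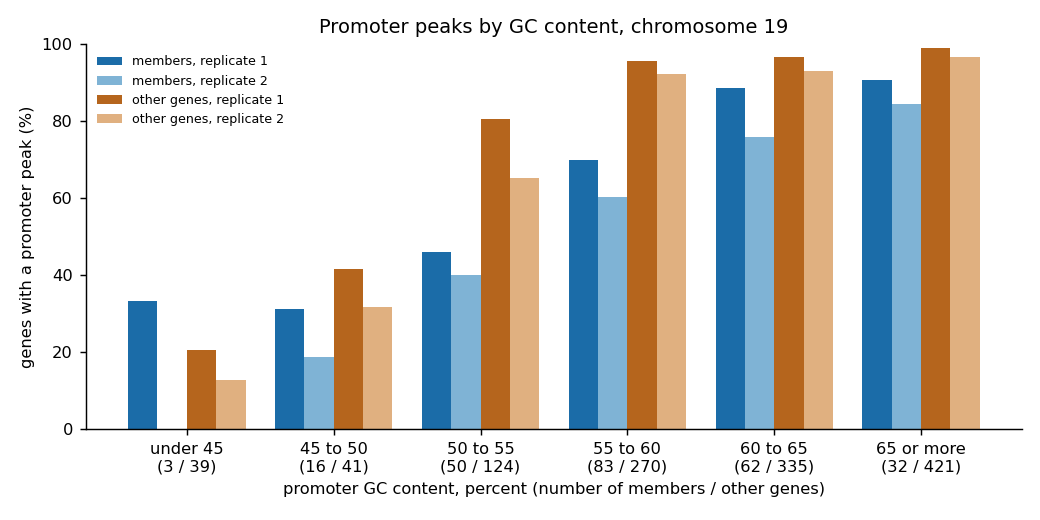
Percent of members (blue) and other chromosome 19 genes (brown) with a promoter peak in each replicate, by promoter GC content, with the number of members and other genes under each class. In every class from 50% GC upward the member bars stand below both bars of the other genes, for example 69.9% and 60.2% against 95.6% and 92.2% between 55 and 60%.

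Where members had promoter peaks, the peaks were fewer, and the highest was narrower and lower than that of other genes. Members with a peak had a median of 1 promoter peak in each replicate, and other genes 4 and 3. The part of peak number in the values of the highest peak was not tested, and these values were not matched for GC content. With canonical starts only, the median fold difference was -1.79, against -2.44. The highest fold of a member had a median of 5.80 in replicate 1, with a range of 2.24 to 35.2. In replicate 2 the median was 5.65, with a range of 2.22 to 16.4. Medians of the other chromosome 19 genes were 8.78 and 7.55. Fragments at the summit had medians of 47 and 28 for members and 61 and 31 for other genes, over control levels of 6.0 and 3.79 for members and 5.26 and 3.15 for the others. A single promoter peak was found at 55% and 61.2% of the members with any, against 15.5% and 12.7% of other genes. The highest peak had a median length of 949 and 860 bp at members and of 2242 and 1578 bp at other genes.

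The highest peaks of members sat close to the start. The summit of the highest peak lay a median of 122 bp from the nearest start in replicate 1 and 158 bp in replicate 2, and 88.3% and 81.6% of them lay within 500 bp. For other genes the medians were 388 and 582 bp, with 53.5% and 47.4% within 500 bp. Over the 145 members with peaks in both lists, the folds had a Spearman's rho of 0.739. It is given as a description with no test, since all points come from the same pair of libraries and genes are not replicates. The highest peaks of the 2 lists need not overlap, and at ZNF573 they start at positions 37779583 and 37817242. Neighbours with a shared peak, such as ZNF569 and ZNF570, enter with the same values. Replicate 1 control levels at the 145 members ranged from 2.58 to 27.0 and promoter GC content from 47.7% to 76.7%.

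**Figure D3:**
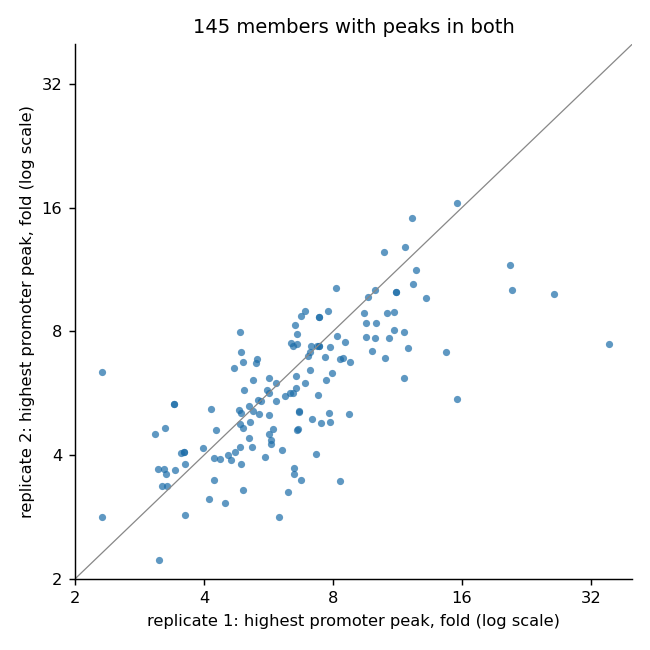
Highest promoter fold of the 145 members with peaks in both replicates, replicate 1 on the x axis and replicate 2 on the y axis, both on log scales, with the line of equal values. Members that were high in 1 replicate tended to be high in the other (rho 0.739), while ZNF846 lies far to the right at 35.2 and 7.47. The highest peaks of a member need not overlap between replicates.

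ZNF446, which encodes a SCAN and KRAB protein with only 3 fingers, ranked first. Its gene lies at chr19:58474017-58481230 at the end of the last cluster. The fold was 15.6 in replicate 1 and 16.4 in replicate 2, from 287 and 180 fragments over control levels of 16 and 10. In replicate 1 the same peak was also the highest of ZNF324. ZNF628 had 20.7 and 11.6, from 156 and 45 fragments, and ZNF333, whose protein carries KRAB domains and 10 fingers, had 20.9 and 10.1, from 214 and 64 fragments. ZNF564 had 12.2 and 15.1, and ZNF784 had 26.3 and 9.84. In the same order the 5 promoters exceeded 99.5%, 99.8%, 99.8%, 98.7% and 99.9% of all replicate 1 peaks on the main chromosomes. ZNF563 shared the rank sum of ZNF784, with 12.5 and 11.3. The highest fold of any member in replicate 1 was 35.2 at ZNF846, where replicate 2 gave 7.47 with another summit. A start of another gene lay within 3000 bp of the starts of ZNF446, ZNF628, ZNF333 and ZNF564, so these peaks cannot be ascribed to the ZNF gene alone. No such start lay near ZNF784 or ZNF563. Over all members, 133 or 54.1% had another gene's start that near, and at 61 of them it was the start of another coding gene. When peaks near any other gene's start were left out, a choice made after the data had been seen, 37.4% ± 4.60 (SD, n = 2) of members kept a promoter peak. Under the same restriction, the median fold of members minus that of other genes was -1.31, against -2.44 for all promoter peaks.

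The 3 GC-rich members without a promoter peak were ZNF667 at chr19:56439325-56478065 with a promoter GC content of 68.5%, ZNF606 at chr19:57977076-58003349 with 67.3%, and ZNF470 at chr19:56567468-56588911 with 66.1%. Their promoters held no repeated 32-base words. All 3 match the KRAB pattern and have 14, 13 and 17 fingers. ZNF667 and ZNF470 lie in cluster 10 with ZNF582, ZNF471 and ZNF835, which had no peak either, and ZNF71, which lies among them, had a peak in replicate 1 only. ZNF583, between ZNF582 and ZNF667, had a peak of low fold in both replicates. Its folds were 2.31 and 2.83, from 69 and 39 fragments over high control levels of 27.0 and 13.2.

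Several members are well studied for what they silence. ZNF91, a repressor of SVA elements with 31 fingers, had a single promoter peak in each replicate, with folds of 5.67 and 4.49 and summits 28 and 13 bp from the start. ZNF93, a repressor of LINE elements, had a peak of 3.24 in replicate 1, from 13 fragments, and none in replicate 2. ZNF274, which binds the finger exons of other ZNF genes and recruits SETDB1 there, had 4.32 in replicate 1, from 42 fragments, and none in replicate 2. ZNF331, imprinted in some tissues, had 5.35 and 5.43. ZNF350, also called ZBRK1, had no promoter peak in either replicate, and the same held for ZNF649 and for ZNF808, which is needed for development of the pancreas. Promoter GC content was 49.4%, 49.9% and 61.0% for these 3.

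Members with and without promoter peaks differed in several features of the annotation. Median promoter GC content was 60.1% for the 145 with peaks in both replicates and 54.6% for the 73 with none. A start of another coding gene lay near 32.4% of the former and 11% of the latter. Repeated 32-base words made up a median of 0.619% and 2.06% of the promoter window, so in both sets most of the sequence was unique. The highest repeat share of any member promoter was 45.6%, at ZNF773, which had a peak in both replicates. By number of fingers, 11 of 13 members with 1 to 5 had peaks in both replicates. The shares were 56.2% of 73 members with 6 to 10 fingers, 65.7% of 105 with 11 to 15 and 43.6% of 55 with 16 or more. GC content moved along with finger number, from a median of 65.1% in the first class to 56% in the last, and its part in the difference was not tested. Of 204 members with the KRAB pattern, 54.9% had peaks in both replicates, and of 42 without it 78.6% did, with median GC contents of 58.1% and 62.2%.

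Shares also differed by position along the chromosome. Neighbouring member starts at most 500 kb apart formed 11 clusters of at least 3 members, which held 235 members, numbered from the short to the long arm. Peaks in both replicates were found at all 5 members of cluster 1 (ZNF554 to ZNF77), at 9 of 13 in cluster 2 (ZNF414 to ZNF846), at 21 of 25 in cluster 3 (ZNF653 to ZNF791) and at 14 of 37 in cluster 4 (ZNF101 to ZNF254), which lies next to the centromere. On the long arm they were found at 4 of 5 in cluster 5 (ZNF302 to ZNF792), at 18 of 26 in cluster 6 (ZNF565 to ZNF573), at all 3 in cluster 7 (ZNF546 to ZNF780A) and at 3 of 23 in cluster 8 (ZNF575 to ZNF180). The last 3 clusters had 12 of 39 (cluster 9, ZNF175 to ZNF331), 10 of 16 (cluster 10, ZNF628 to ZNF835) and 36 of 43 (cluster 11, ZNF264 to ZNF446). Clusters 4, 8 and 9 thus held 19, 17 and 20 of the 73 members without a peak. Outside clusters, 10 of 11 members had peaks in both replicates.

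Among clusters of more than 20 members, cluster 8 had the lowest share and clusters 3 and 11 the highest. In cluster 8 the shares were 21.7% and 17.4% in the 2 replicates, in cluster 3 they were 24 and 21 of 25 members, and in cluster 11 they were 90.7% and 83.7%. The median promoter GC content was 52.0%, 62.4% and 59.0%. In cluster 8 the 3 members with peaks in both replicates, ZNF575, ZNF576 and ZNF428, are its first 3, and 16 of its 23 members match the KRAB pattern. ZNF224 and ZNF180 had a peak in replicate 1 only, and ZNF225 in replicate 2 only.

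Other coding genes inside the clusters were counted in the same way. Of 112 such genes, which include other zinc finger genes, 56.2% (47.0 to 65.1) had promoter peaks in both replicates, near the 57.4% (51.1 to 63.6) of members in clusters and below the 89.4% of other genes outside them. Median GC contents were 57.6%, 58.3% and 62.5%. For the 76 of the 112 with no zinc finger name, finger match or KRAB pattern the share was 52.6% (41.6 to 63.5), and for the other 36 it was 63.9% (47.6 to 77.5). In cluster 8, 11 of 14 other genes had peaks in both replicates, against 3 of 23 members. In cluster 9 it was 4 of 15, beside 12 of 39 members. The cluster 8 runs of members without a peak, described below, each held 1 other gene, and neither of these had peaks in both replicates. Peaks of any kind were sparse in the clusters, with 52.0 per Mb in replicate 1 and 36.1 in replicate 2, against 188 and 164 per Mb in the rest of the chromosome. Cluster 4 was the sparsest, with 11.2 and 6.72 peaks per Mb over 4.46 Mb.

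**Figure D4:**
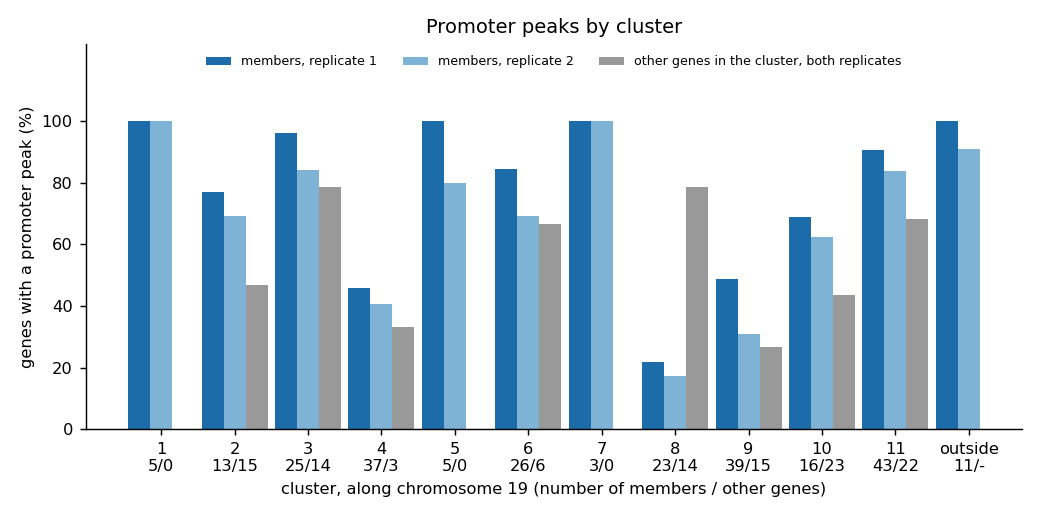
Percent of members with a promoter peak in replicate 1 (dark blue) and replicate 2 (light blue), and percent of other genes in the same cluster with peaks in both replicates (grey), by cluster and for the 11 members outside clusters, with gene numbers under each. Cluster 8 has the lowest member bars, 21.7% and 17.4%, beside a grey bar of 78.6%. The grey bar covers the whole cluster, and the other genes inside its runs of members without a peak were not among those with peaks.

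Within the clusters, members without peaks stood in runs. The longest was a run of 10 neighbours in cluster 4 (ZNF208, ZNF257, ZNF676, ZNF729, ZNF98, ZNF492, ZNF99, ZNF723, ZNF728 and ZNF730) over 1.21 Mb, where neither list held a peak of any kind. Their promoters were among the more repetitive, with a median of 22.4% repeated words. A run of 9 in cluster 8 (ZNF283, ZNF404, ZNF45, ZNF221, ZNF155, ZNF230, ZNF222, ZNF223 and ZNF284) spanned 0.262 Mb and held 0 and 1 peaks, and its promoters had a median repeat share of 0. Almost beside it, 8 neighbours (ZNF234, ZNF226, ZNF227, ZNF233, ZNF235, ZNF112, ZNF285 and ZNF229) spanned 0.307 Mb with no peak in either list and a median repeat share of 2.68%. Cluster 9 held a pair of runs of 4, one of ZNF610, ZNF880, ZNF528 and ZNF534 and the other of ZNF415, ZNF347, ZNF665 and ZNF677. Empty runs thus occurred in promoters with and without repeated sequence, and the part of read placement in them was not tested.

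The other 9 members of cluster 4 without a promoter peak were ZNF253, ZNF682, ZNF90, ZNF626, ZNF66, ZNF85, ZNF738, ZNF493 and ZNF726. In cluster 9 those outside the runs were ZNF577, ZNF649, ZNF350, ZNF615, ZNF432, ZNF841, ZNF808, ZNF701, ZNF600, ZNF320, ZNF888 and ZNF525. Cluster 2 had ZNF177, ZNF560 and ZNF562, cluster 3 had ZNF69, cluster 6 had ZNF461, ZNF585A, ZNF793 and ZNF607, and cluster 11 had ZNF772, ZNF154, ZNF606 and ZNF135. Together with the runs and the 5 of cluster 10 named above, these are all 73.

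Members with peaks also followed each other in chromosome order, though over longer spans. The longest run with peaks in both replicates held 13 members over 7.57 Mb, from ZNF136 in cluster 3 to ZNF14 in cluster 4. Of the 218 other genes between them, 207 had peaks as well. A run of 12 reached over 6.53 Mb from ZNF554 to ZNF559, with peaks at 158 of the 172 other genes between them. A run of 10 reached over 2.64 Mb from ZNF331 to ZNF444, where only 44 of 89 other genes had them.

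Gene ends were counted apart from promoters. A gene-end peak lay within 3000 bp of no transcript start of any gene, and touched the last exon of the canonical transcript or the 1000 bp either side of the gene's 3′ end. Replicate 1 had one at 14 members, or 5.69% (3.42 to 9.32), and replicate 2 at 16, or 6.50% (4.04 to 10.3), with a mean of 6.10% ± 0.575 (SD, n = 2). The background over all protein-coding genes was 12.9% and 10%. Both replicates had one at 11 members, or 4.47% (2.51 to 7.83), against 8.10% of all protein-coding genes. The interval of replicate 1 and that of both replicates lay below the background, while that of replicate 2 included it. These intervals reflect counting error alone and treat members as independent, which neighbouring duplicates are not. Other chromosome 19 genes had gene-end peaks in 20.4% (18.2 to 22.7) and 19.9% (17.8 to 22.2) of cases, and ZNF genes on other chromosomes in 16.4% and 12.6%.

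The share of members did not rise with the length of the last exon. Among genes with a last exon of 4000 bp or more, 5.62% of 89 members had a gene-end peak in each replicate, against 30 and 28 of 56 other genes. Between 2000 and 4000 bp the shares were 4.46% and 7.14% of 112 members and 28.5% and 30.2% of 172 other genes. Per length of window, members had 17.0 and 13.8 gene-end peaks per Mb and other genes 111 and 103. Because starts of other genes take up part of these windows, the count was repeated over window bases more than 3000 bp from every start, an alternative chosen after the data had been seen. Members then had 25 and 20.2 peaks per Mb and other genes 266 and 245. Repeated 32-base words made up a median of 12.4% of the last exon of members and 0% of that of other genes, and the part of read placement in the low counts was not tested.

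**Figure D5:**
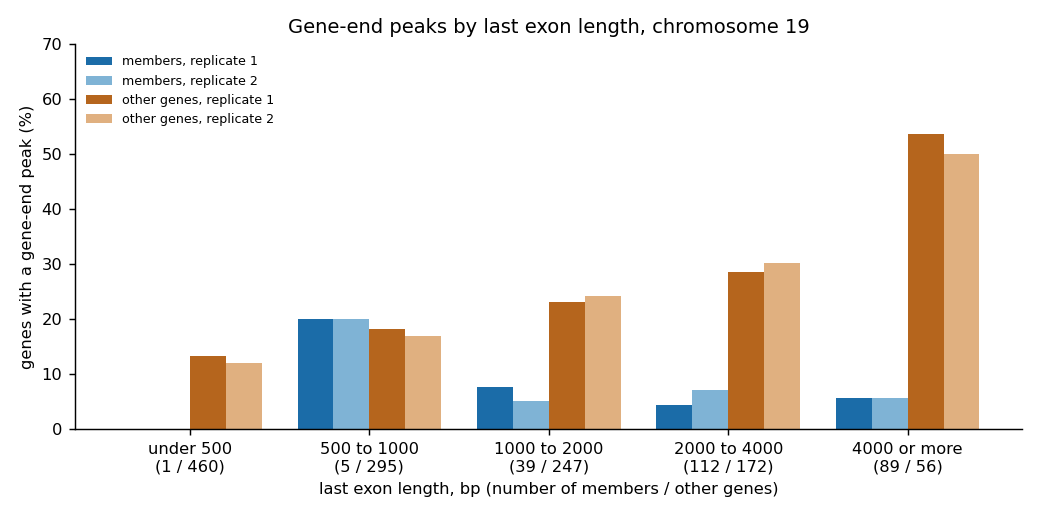
Percent of members (blue) and other chromosome 19 genes (brown) with a gene-end peak in each replicate, by length of the last exon, with the number of members and other genes under each class. The bars of other genes are highest in the longest class, at 30 and 28 of 56 genes, and those of members remain at 7.69% or less in the 3 classes above 1000 bp.

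The 11 members with gene-end peaks in both replicates were ZNF554, ZNF574, ZNF526, ZNF541, ZNF175, ZNF787, ZNF444, ZNF264, ZNF548, ZNF8 and ZNF324B. By the rank of fold in both replicates, ZNF548 came first, with 6.60 and 5.06 from 25 and 15 fragments at summits 956 and 892 bp beyond its 3′ end, where unnamed annotated genes also lie. ZNF554 had peaks with folds of 5.43 and 5.80 beyond its end. ZNF324B had 4.41 and 6.58 over its coding last exon. ZNF526 had 5.96 and 4.91 in the non-coding part of its last exon, where GSK3A, a kinase gene, overlaps it. ZNF574 had 4.39 and 4.77 over coding sequence, and ZNF175, with the same rank sum, had 5.20 and 4.05. These folds rested on few fragments, 42 at most among the members' gene-end peaks, and on local control levels between 1.59 and 9.65.

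Of the 21 gene-end peaks of members in replicate 1, 8 had their summit beyond the gene, 8 in coding exon, 4 in the non-coding part of an exon and 1 in an intron of the gene. The 17 of replicate 2 divided into 6, 5, 5 and 1. Summits inside the finger array were found for 6 and 3 peaks. The median fold was 4.07 and 4.47. ZNF526 and ZNF264 had a peak with its summit in the array in both replicates. Coding sequence around their replicate 1 summits is shown because these are the only members with such a repeated signal over the fingers themselves. It was read from hg38 at chr19:42224923-42225090 (plus strand) and chr19:57212460-57212627 (plus strand), 5′ to 3′ in the sense of the gene, with capitals for the codons of the cysteines and histidines that define each finger match.
ZNF526: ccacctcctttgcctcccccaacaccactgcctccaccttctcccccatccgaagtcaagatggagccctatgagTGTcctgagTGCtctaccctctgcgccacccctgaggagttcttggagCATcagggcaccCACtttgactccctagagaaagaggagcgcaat
ZNF264: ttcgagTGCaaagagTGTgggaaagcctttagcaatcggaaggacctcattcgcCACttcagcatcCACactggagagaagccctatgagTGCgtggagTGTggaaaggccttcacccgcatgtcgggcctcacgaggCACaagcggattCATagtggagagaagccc

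The replicate 1 summit is base 86 of the ZNF526 stretch and base 85 of the ZNF264 stretch. The first holds 1 whole finger match and the other 2 matches joined by a short linker. The folds were 3.98 and 3.50 at ZNF526, from 31 and 17 fragments, and 3.90 and 3.17 at ZNF264, from 18 and 11. An unnamed annotated gene also spans the ZNF526 summits. No other annotated gene lay at the ZNF264 summits.

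The genes that serve KRAB proteins were counted with the same promoter rule, from a list of 14. Promoter peaks in both replicates were found at 11 of the 14, beside the 57.0% of all protein-coding genes given above. TRIM28, the scaffold that KRAB domains bind, had folds of 14.1 and 11.3, and SETDB1, the H3K9 methyltransferase, had 6.64 and 4.64. The HP1 genes CBX1, CBX3 and CBX5 had 5.23 and 4.32, 17.4 and 17.4, and 14.1 and 8.82. Of the HUSH complex and its partners, TASOR, MPHOSPH8 and MORC2 had peaks in both replicates with folds between 4.25 and 5.07, whereas PPHLN1 had 3.43 in replicate 1 only. DAXX had 15 and 6.10, but ATRX, its chromatin remodelling partner, had 6.70 in replicate 1 only. DNMT1 and UHRF1, which maintain DNA methylation, had 13.0 and 11.4, and 9.69 and 8.27. ATF7IP, the partner of SETDB1, had no promoter peak. A peak is no measure of expression. Of 8 T lineage markers, 5 had promoter peaks in both replicates (not CD2, CD28 or CD3E), and of 8 markers of other blood lineages 5 did too, the same count.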

How the data were processed

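NUDT21 CUT&Tag peaks of 2 replicates of J.gamma1 cells, 1 group, were analysed. Per the paper's methods and the labels, reads were cleaned with fastp, mapped to hg38 with Bowtie2 2.2.5, cleared of duplicates with Picard and passed to MACS3 3.0.1, separately for each replicate. For every peak the authors deposited the fold over local background at the summit (a ratio), its −log10 p-value and −log10 q-value, and a score, which was not used. No deposited peak had a −log10 q under 2.00. The lists held 97162 and 68532 peaks, of which 92722 and 66671 lay on the main chromosomes. Read totals are not known. The number of fragments at a summit and the control level were solved from the fold and p as MACS computes them, which succeeded for 9003 of 9006 and 7737 of 7737 chromosome 19 peaks and left a median of 28 and 19 fragments. On simulated data with no scaling, the known values were among the solutions returned in nearly all cases. The scaling given next and the choice between solutions were not simulated. The recovered pileup was scaled by 0.921 in replicate 1 and 1.00 in replicate 2. Fragments were the pileup divided by this scale, while control levels were left as solved. In both replicates the fold is the pileup plus 1 over the control level plus 1, so it is not their plain ratio. In replicate 1 the printed fragments and control level do not return the fold even so, because of the scale. MACS scales in this way when given a control library of another size, but the sources used here describe none, so the fold and control level may be relative to a library of unknown kind.

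Genes, starts and last exons came from GENCODE 44 on hg38; the authors' annotation is not stated in the sources used here. Repeats were 32-base words that occur again on the main chromosomes. Fingers were C-x2-C-x12-H-x3-5-H, and KRAB A boxes EWxxLxxxQxxL or QxxL(YHF)xx(VM)(MI)L(ED)N, patterns that miss diverged boxes. Promoter sequences came from RefSeq (GRCh38.p14), and the rule's protein stretch was not shown. Wilson intervals (95%) stand beside the shares and reflect counting error alone. Genes and neighbouring peaks are not independent replicates, paralogous members can share reads, and with 1 group no test was run. Python 3.11.15 with numpy 2.4.6, pandas 2.3.3 and scipy 1.17.1 was used.

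The members and lists were chosen with earlier results of these data known. Named genes were 7 members known from textbooks, the 5 members with the lowest sum of fold ranks at promoters and the 5 at gene ends, all members with no promoter peak (values for the 3 with the highest GC content), the first and last member of each cluster, and 14 corepressor genes. ZNF846, ZNF563, ZNF773, ZNF264, ZNF175, ZNF486, ZNF225 and others outside this rule were named after their values were seen. Alternatives were other distances, summits, canonical starts, stricter peaks, other GC measures, other gene-end windows, other cluster gaps, and each replicate alone. A further 4 were chosen after seeing the data.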

Additional observations from a re-analysis of the deposited data

Results flagged for a closer look

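Sequences assigned to chromosome 19 outside the main chromosome carried peaks that no comparison above used. There were 250 of them in replicate 1 and 87 in replicate 2, and no control sample was at hand to set them against, so any peak there would have been listed. They were not assigned to members.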

How the results depend on the processing

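No paired analysis was possible because no second group exists to pair with. No value changed sign. Apart from single replicates and cluster gaps, 15 recomputed values stayed within 1 SD between replicates and 24 moved beyond it. With a −log10 q of at least 5, the member promoter share was 56.1%, the difference from other chromosome 19 genes -29.7 points and from GC-weighted genes -25.2, the gene-end share 3.86%, its difference -13.1 points and the ratio of gene-end peaks per Mb (members over others) 0.105. With the 10000 strongest peaks per list the first 3 were 30.5%, -31.5 and -23.6. The GC-weighted difference was -24.7 with GC content within 250 bp and -29.9 with the CpG ratio. Peaks near no other gene's start left 37.4% of members with a promoter peak and a difference in median fold of -1.31, against -2.44, and genes with no second start near them differed by -18.7 points. Keeping promoter peaks gave a gene-end share of 16.3%, a difference of -60.9 points and a ratio of 0.0999, against 6.10%, -14.1 and 0.143. Summits in the window gave -11.0 points and 0.172, and the 1000 bp around the 3′ end alone 4.07%, -13.1 points and 0.231. With free window bases only the ratio was 0.0882, and among genes with at least 1000 bp of them the difference was -39.8 points. The cause was not tested for any of these. Each replicate alone gave promoter shares of 59.8 to 69.5%, differences of -27.0 to -21.9 and -22.9 to -19.3 points, gene-end shares of 5.69 to 6.50%, differences of -14.7 to -13.4 points, ratios of 0.134 to 0.153 and fold differences of -2.98 to -1.90. Cluster gaps of 250 and 1000 kb gave 15 and 10 clusters, against 11. The 26 promoters seen in replicate 1 alone had 13 to 56 fragments there, and whether depth bears on the lack of a replicate 2 peak was not tested.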

Other observations

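The gapped word TACANNTCCCA, noticed in the printed promoters of ZNF628, ZNF606 and ZNF470 and then counted, stood in 14.8% of the 216 member promoters with a RefSeq entry, in 2.63% of those of other chromosome 19 genes and in 1.46% of all promoters in the table. Among members it stood in 12.6% of promoters with a peak in both replicates and in 19.6% of those with none, the same order as for CCGGAAG. Members descend from each other by duplication, so these promoters are not independent, and no test was run.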
